A study of Mus musculus with 6 samples.

Results

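The genes described here are the metallothioneins and a set of zinc transporters with their metal sensor, as read by a mouse expression array. The members are the array rows named MT1, MT2, MT3, MTF1, SLC30A1, SLC30A4, SLC39A1 and SLC39A14, with upper and lower case treated alike. The 8 genes have 12 rows, each a probe of its own, among the 45281 rows and 30854 gene names of the file. RNA came from C2C12 cells, a mouse myoblast line that fuses into myotubes when serum is lowered. Cells of the Scramble group (n = 3) received a control siRNA and cells of the siDJ-1 group (n = 3) an siRNA against DJ-1 (gene Park7), each at 60 nM. Both groups were moved to differentiation medium after 48 h and were collected as myotubes after 4 days in it, and the 6 samples were hybridized to 6 arrays of 1 BeadChip. The comparison asks how transcripts of zinc handling differ between myotubes with less DJ-1 mRNA and their controls.

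Metallothioneins are small, cysteine-rich proteins that bind zinc and copper and hold the cytosolic concentration of free zinc low. MTF1 is the zinc finger transcription factor that senses zinc and switches on the metallothionein genes and the exporter gene SLC30A1 through short promoter motifs called metal response elements. Transporters of the SLC30A (ZnT) family move zinc out of the cytosol, across the plasma membrane or into vesicles, and those of the SLC39A (ZIP) family move it in. Skeletal muscle holds a large share of the zinc of the body, and zinc transporters and metallothioneins change their expression as muscle cells differentiate or waste.

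The target of the siRNA was checked first. The probe of PARK7 read 13.59, 13.37 and 13.63 normalized log2 units in the Scramble samples and 12.48, 12.49 and 12.15 in the siDJ-1 samples. PARK7 fell by 1.16 on the log2 scale in the siDJ-1 group (SE 0.14, adjusted p = 0.00344), and every siDJ-1 array lay below every Scramble array. Myotube genes were detected on every array, with all 11 probes of Myh3, Acta1, Actc1, Ckm, Mylpf, Tnnt3, Des and Myog above background. The 3 adipocyte, 6 macrophage and 4 endothelial marker probes gave at most 1, 2 and 1 detected probes on any array, in that order, and Pax7, which marks muscle stem cells, was detected on none. The only tested probe of the 3 lists, of the macrophage gene Cd68, was detected on 1 Scramble and 3 siDJ-1 arrays (log2 fold change 0.52, adjusted p = 0.169). Among the myotube probes Des fell by 0.56 (adjusted p = 0.0076; 0.33 with the 75th percentile shift and background correction) and Tnnt3 fell by 0.52 (adjusted p = 0.0164) on the log2 scale, and the other 9 had adjusted p-values above 0.05. Among the 12 probes of myoblast or proliferating cells Id3 fell by 1.40 (adjusted p = 0.00494; 0.70 without background correction), Id1 fell by 0.57 (adjusted p = 0.026, called under 7 of 15 alternatives) and 1 of the 2 CCNB1 probes fell by 0.57 (adjusted p = 0.0161) on the log2 scale. The other CCNB1 probe gave -0.31 (adjusted p = 0.166), while the tested probes of Mki67 gave 0.47 and 0.20 (adjusted p = 0.0882 and 0.237) and those of TOP2A 0.25 and 0.23 (adjusted p = 0.0782 and 0.122), so that 4 of the 8 tested probes were higher and 4 lower. Without background correction Mki67 ILMN_1245049 went from 0.47 to 0.15 and TOP2A ILMN_1255436 from 0.25 to 0.14. The summed signal of those 12 probes was 5862, 6400 and 5635 in the Scramble samples and 4966, 5865 and 4540 in the siDJ-1 samples, with CCNB1 the brightest gene, and the part of these markers in the results below was not tested. In RNA from whole cultures, fewer cells of a type and less RNA per cell cannot be told apart.

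None of the member probes passed the test. Of the 12 probes, 8 were detected on at least 3 of the 6 arrays and were tested, and they covered 6 of the 8 genes. The limma fit called 0 of these 8 probes at an adjusted p under 0.05, where it called 30.1% of all 17890 tested probes (5387). At an unadjusted p under 0.05, 1 of the 8 passed in limma, SLC30A4, and 0 passed in an unmoderated test. Of all 17890 tested probes 7659 and 7026 passed, in that order. Non-overlapping groups were seen for 2 of the 8 tested member probes, MT1 and SLC30A4, against 48.5% of all tested probes. The median log2 fold change of the 8 probes (siDJ-1 minus Scramble) was 0.0124 and that of all tested probes 0.0465. The count of 0 lies below the array-wide share, and the difference between them was not tested.

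**Figure D1:**
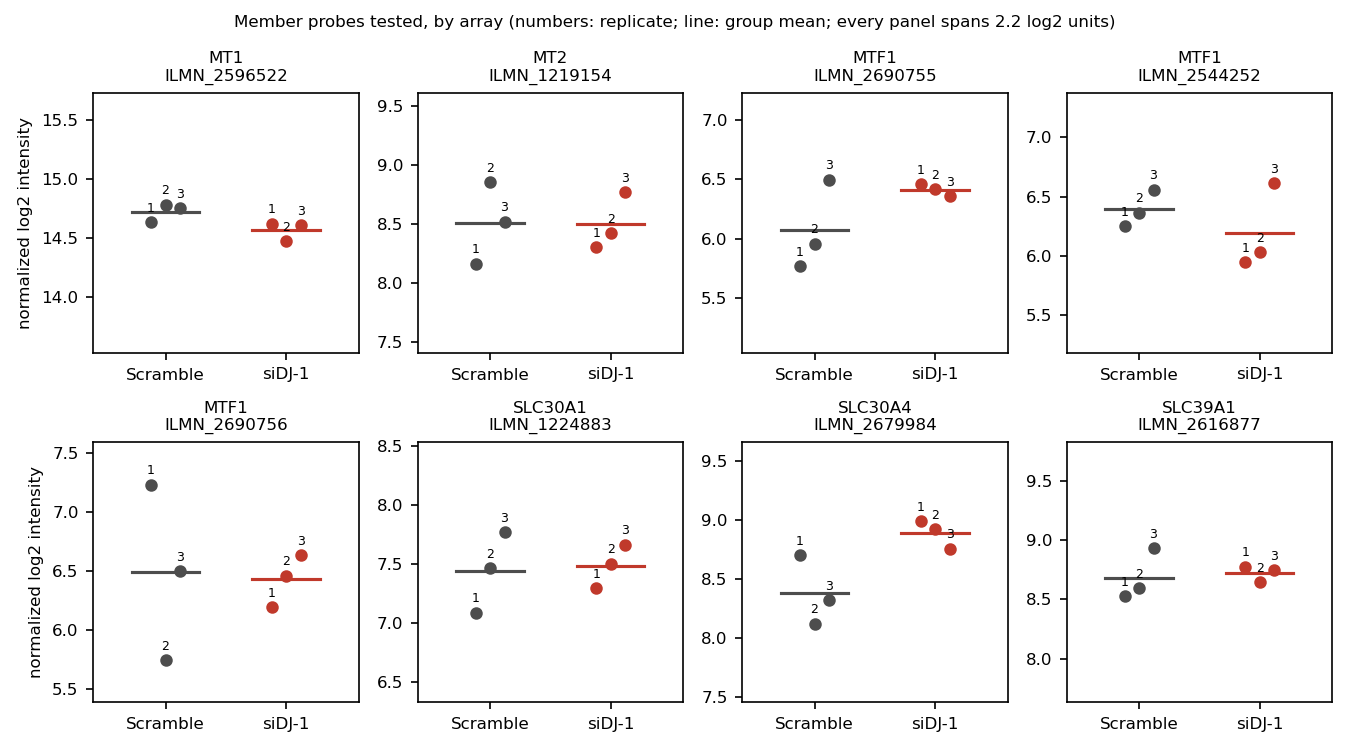
Normalized log2 intensity of the 8 tested member probes on each array, with Scramble arrays in grey and siDJ-1 arrays in red. Each dot is 1 array with its replicate number, the line is the group mean, and every panel has the same height. The groups separate for MT1 and SLC30A4 and overlap for the other 6 probes.

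MT1, the widely expressed metallothionein, gave overlapping signals in the 2 groups. Its single probe read intensities of 23938, 28056 and 24313 in the Scramble samples and 26511, 26143 and 24969 in the siDJ-1 samples, before any normalization. The siDJ-1 signals lay inside the range of the Scramble signals. The standard error over the beads of an array was 2.14 to 5.33% of the signal. After quantile normalization the probe read 14.64, 14.79 and 14.76 log2 units in the Scramble samples and 14.62, 14.48 and 14.61 in the siDJ-1 samples, so that the groups no longer overlapped, by a narrow gap. The log2 fold change of MT1 was -0.16 (SE 0.10, 95% interval -0.39 to 0.08, adjusted p = 0.277), a fold of 0.898 with bounds of 0.761 and 1.06. When arrays were instead scaled by their 75th percentiles, without quantile normalization, its sign turned, to 0.14 with background correction and 0.08 without.

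MT2, the second widely expressed metallothionein, is a neighbour of MT1 on chromosome 8. Its probe read intensities of 440, 626 and 489 in the Scramble samples and 442, 508 and 493 in the siDJ-1 samples. The values are those of overlapping groups, with Scramble replicate 2 the highest of all. Normalized, the Scramble group stood at 8.51 ± 0.34 and the siDJ-1 group at 8.50 ± 0.24 log2 units (SD, n = 3 each). The log2 fold change was -0.01 (95% interval -0.50 to 0.47, adjusted p = 0.964), wide enough to hold changes of 1.39-fold upward and 0.705-fold downward. MT3, the metallothionein best known from the brain, was detected on none of the 6 arrays, with detection p-values from 0.167 to 0.986, and was not tested.

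The promoters of the metallothionein genes hold the motif that MTF1 binds. RefSeq promoter windows of GRCm38.p6, 300 bases long with 250 before the listed start, were available for 7 of the 8 members, all but SLC39A14. They were searched on both strands for the metal response element core (TGCACNC or TGCGCNC), the hypoxia core (ACGTG or GCGTG) and the antioxidant core (TGACNNNGC). MT2 has 4 metal cores, MT1 has 3, SLC30A4 has 3, SLC30A1 has 2, MT3 has 1, and MTF1 and SLC39A1 have 0. The RefSeq gene record of MT1 begins 206 bases before its listed start and that of SLC30A1 84 bases before, so that 256 and 134 of their 300 bases lie inside the gene record, among them all 3 metal cores of MT1. Of all 32851 windows, 25.7% hold at least 1 metal core, 7.11% at least 2, 1.97% at least 3 and 0.517% at least 4. The MT2 and SLC30A4 windows are shown up to 30 bases past the start, as those of the metallothionein with the most cores and of the member with the largest fold change, and a short stretch of MT1 shows its pair of cores past the listed start. Capitals mark the metal cores on either strand, and each sequence runs 5′ to 3′ on the strand of its gene.
MT2, chr8:94172368-94172647, plus strand: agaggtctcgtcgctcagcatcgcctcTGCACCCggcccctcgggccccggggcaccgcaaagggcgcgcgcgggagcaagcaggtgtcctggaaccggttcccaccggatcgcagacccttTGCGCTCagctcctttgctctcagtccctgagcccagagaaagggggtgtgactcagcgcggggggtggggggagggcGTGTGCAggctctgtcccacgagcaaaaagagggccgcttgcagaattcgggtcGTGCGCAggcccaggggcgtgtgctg
MT1, chr8:94179091-94179115, plus strand: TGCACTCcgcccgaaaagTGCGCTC
SLC30A4, chr2:122702634-122702913, minus strand: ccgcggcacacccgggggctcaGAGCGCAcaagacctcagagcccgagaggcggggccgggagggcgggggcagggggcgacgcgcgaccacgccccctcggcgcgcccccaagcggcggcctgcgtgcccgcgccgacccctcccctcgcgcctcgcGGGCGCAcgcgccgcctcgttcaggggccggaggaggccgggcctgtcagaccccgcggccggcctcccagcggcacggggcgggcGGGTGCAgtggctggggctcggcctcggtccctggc

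The other motifs are spread over the same windows. The hypoxia core occurs 3 times in SLC30A4, 2 times each in MT1 and MT2 and 1 time each in SLC30A1 and SLC39A1, and 43.8% of all windows hold at least 1. The antioxidant core occurs 1 time each in MT2, SLC30A1 and SLC39A1, and 12.4% of all windows hold at least 1. A hypoxia core overlaps a metal core in MT2 and in SLC30A4, and overlaps the antioxidant core in SLC30A1. A match says that these letters lie in the window and does not say that a factor binds there. MT1 and MT2, with 3 and 4 metal cores, and SLC30A4, with 3, were not called in the comparison.

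**Figure D2:**
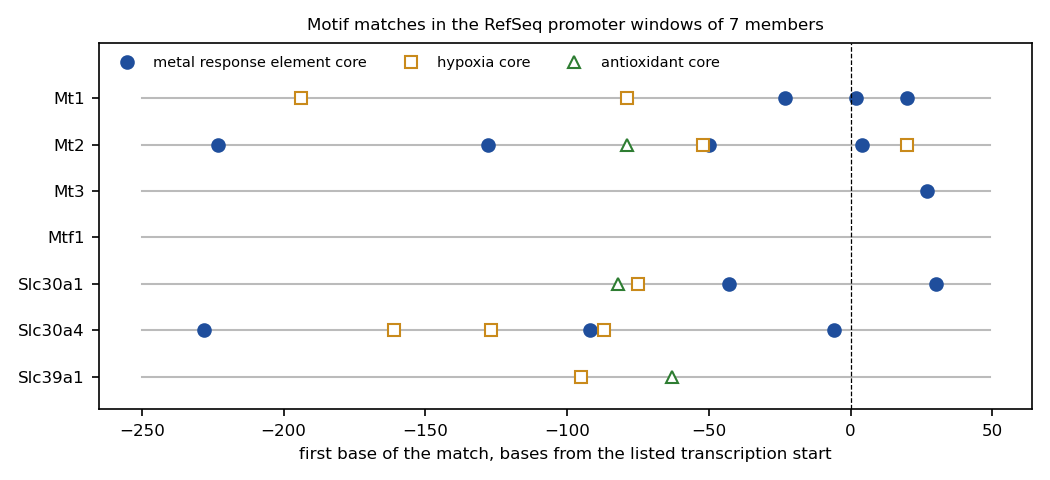
Position of each motif match in the promoter windows of 7 members, as the distance in bases of its first base from the listed transcription start (dashed line). Filled circles are metal response element cores, open squares hypoxia cores and open triangles antioxidant cores; MT2 holds 4 metal cores and MTF1 none.

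MTF1 is covered by 3 probes, which read close to background and did not move together. Probe ILMN_2690755 read 5.77, 5.96 and 6.50 log2 units in the Scramble samples and 6.46, 6.42 and 6.36 in the siDJ-1 samples. The siDJ-1 arrays lay close together and inside the reach of Scramble replicate 3, for a log2 fold change of 0.34 (SE 0.19, adjusted p = 0.222). Without Scramble replicate 3 that probe passed the test, with a log2 fold change of 0.55 (adjusted p = 0.0264; 0.0264 to 0.454 over its 14 alternatives), and without background correction it gave 0.12. Probe ILMN_2544252 gave a log2 fold change of -0.20 (adjusted p = 0.483; -0.07 without background correction). With an array left out it ranged from -0.404 to -0.069 and was not called. Probe ILMN_2690756 gave a log2 fold change of -0.06 (adjusted p = 0.912). For the last, Scramble replicate 1 read 7.23 and Scramble replicate 2 read 5.75 log2 units, a distance larger than that among the siDJ-1 arrays (6.20, 6.46 and 6.64). The mean over the 3 probes gave a log2 fold change of 0.03 (adjusted p = 0.911).

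SLC30A1, the zinc exporter of the plasma membrane and a classical MTF1 target, showed overlapping groups. Its probe read 7.09, 7.46 and 7.77 log2 units in the Scramble samples and 7.30, 7.50 and 7.66 in the siDJ-1 samples. The siDJ-1 values all fell between the lowest and the highest Scramble value. The log2 fold change was 0.05 (SE 0.19, 95% interval -0.41 to 0.51, adjusted p = 0.877).

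SLC30A4, a transporter that loads zinc into intracellular vesicles, gave the largest fold change among the tested members and came close to the threshold. Its probe read intensities of 573, 434 and 443 in the Scramble samples and 634, 667 and 490 in the siDJ-1 samples. In those unnormalized signals Scramble replicate 1 lay above siDJ-1 replicate 3. After normalization it read 8.70, 8.12 and 8.32 log2 units in the Scramble samples and 8.99, 8.92 and 8.76 in the siDJ-1 samples, so that all 3 siDJ-1 arrays lay above all 3 Scramble arrays. The log2 fold change was 0.51 (SE 0.17, 95% interval 0.11 to 0.90, adjusted p = 0.0581), a fold of 1.42. The 2-sided exact permutation test over the arrays gave p = 0.1, the smallest value that 3 arrays against 3 allow. The probe passed the threshold under 6 of 15 alternatives and stayed positive under all 15, with adjusted p-values from 0.0155 to 0.164. Alternatives that change only the filter, the variance model or the replicate block keep its log2 fold change at 0.51, so its sign was fixed there. Without background correction its log2 fold change was 0.38 (adjusted p = 0.0181), with array weights 0.61 (adjusted p = 0.0189), and without Scramble replicate 1 0.68 (adjusted p = 0.0155). It is thus a probe at the edge of the threshold, whose call rests on the setting.

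**Figure D3:**
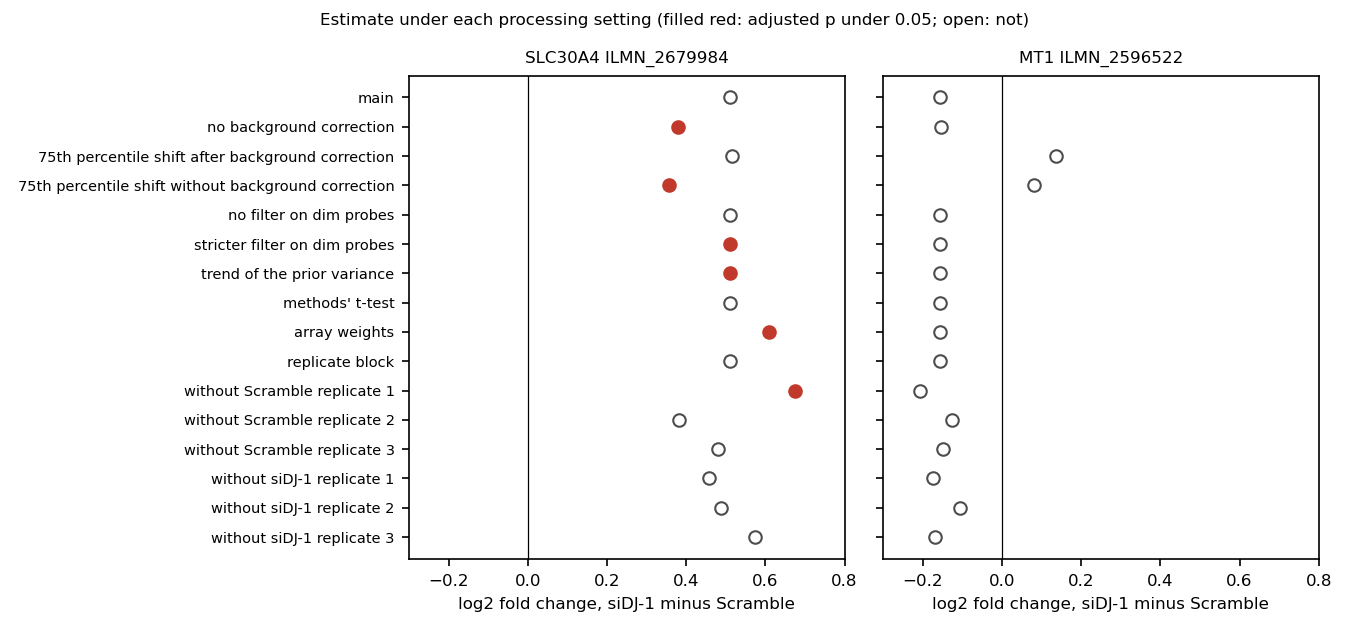
Log2 fold change (siDJ-1 minus Scramble) of SLC30A4 and MT1 under the main setting and the 15 alternatives, 1 dot each. Filled red dots have an adjusted p under 0.05; SLC30A4 ranges from 0.36 to 0.68 and is called under 6 alternatives, and MT1 changes sign under both 75th percentile shifts.

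SLC39A1, a zinc importer of the plasma membrane found in most tissues, showed overlapping groups too. Its detected probe read 8.53, 8.60 and 8.93 log2 units in the Scramble samples and 8.78, 8.65 and 8.75 in the siDJ-1 samples, with the siDJ-1 arrays inside the Scramble range. The log2 fold change was 0.04 (SE 0.13, 95% interval -0.28 to 0.36, adjusted p = 0.847). The other probe of SLC39A1 was detected on none of the arrays. SLC39A14, which imports zinc, iron and manganese and is induced in inflammation, was detected by 1 of its probes on Scramble replicate 1 alone and by the other on no array, so it was not tested. The signs of the estimates of MT2, SLC30A1, SLC39A1 and MTF1 probe ILMN_2690756, all near 0, turned when single arrays were left out.

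Among the other zinc transporters the calls were 4 of 19 tested probes, 21.1%, against 30.1% over all probes. With an array left out the list held 1 to 4 calls and the whole array 2444 to 5302. The list holds the remaining SLC30A and SLC39A genes and MT4, with 41 probes of 21 genes, of which 12 genes had a tested probe. Of the 4 called probes 2 were higher in siDJ-1, where 16.5% of all tested probes were higher, and 2 were lower, where 13.6% were lower. The median log2 fold change of the 19 tested probes of the list was 0.03, against 0.0465 over all tested probes. The share of calls in this family is thus near that of the array in the main setting, and the difference was not tested. Among the called importers SLC39A10 was higher and SLC39A11 lower. Among the called exporters SLC30A6 was lower. The other called exporter, SLC30A3, was higher, but it was detected on no Scramble array and entered the test through its siDJ-1 arrays alone.

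SLC39A10, a zinc importer of the plasma membrane, rose. Its probe read 6.04, 5.55 and 6.04 log2 units in the Scramble samples and 7.13, 7.05 and 7.20 in the siDJ-1 samples. Every siDJ-1 array lay above every Scramble array. The log2 fold change was 1.25 (SE 0.16, 95% interval 0.88 to 1.62, adjusted p = 0.00374), or 2.38-fold. The probe was called under all 14 alternatives that tested it, with log2 fold changes from 0.51 without background correction to 1.36. On the unnormalized scale its intensities were 206, 188 and 191 in Scramble and 273, 280 and 252 in siDJ-1, so the size of the fold changes with the background that is taken off.

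SLC30A3, the exporter that loads zinc into synaptic vesicles of neurons, was detected on 0 Scramble and 3 siDJ-1 arrays by probe ILMN_2521965. That probe read 4.78, 4.89 and 5.26 log2 units in the Scramble samples and 6.67, 6.37 and 6.56 in the siDJ-1 samples. Since no Scramble array detected it, the change is a bound: in the main setting the transcript was at least 2.03-fold higher in siDJ-1. The adjusted p of 0.00292 in limma belongs to the full difference, not to that bound. The probe entered the test through its 3 siDJ-1 arrays alone and was not tested when any of them was left out; with no filter its adjusted p was 0.00557, and without background correction its log2 fold change was 0.54, below that bound. A further probe of the same gene, ILMN_2692938, was detected on no array, so the probes of SLC30A3 differ. The Scramble arrays detected 16985, 17399 and 18179 probes and the siDJ-1 arrays 18704, 18857 and 18408, and the bead-level standard error had medians of 11.3, 8.30 and 8.66 in Scramble and 7.17, 6.36 and 5.88 in siDJ-1. The part of that difference in noise in the detection calls was not tested.

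SLC30A6, which pairs with SLC30A5 to carry zinc into the early secretory pathway, fell by 0.51 on the log2 scale (SE 0.11, adjusted p = 0.0179). Its probe read intensities of 1475, 1383 and 1297 in the Scramble samples and 904, 1214 and 876 in the siDJ-1 samples, so every siDJ-1 array lay below every Scramble array before normalization as well. The call was lost without siDJ-1 replicate 1 (adjusted p = 0.0679) and without siDJ-1 replicate 3 (adjusted p = 0.0585), within 0.00154 to 0.0679 over its alternatives. Its partner SLC30A5 was not called, with log2 fold changes of -0.04 (adjusted p = 0.803) on probe ILMN_1221208 and 0.10 (adjusted p = 0.461) on ILMN_2614778. SLC39A11 fell by 0.47 on the log2 scale (SE 0.10, adjusted p = 0.0153), with intensities of 457, 500 and 444 in Scramble and 373, 377 and 322 in siDJ-1. Without siDJ-1 replicate 3 its adjusted p was 0.0511, the highest of a range that starts at 0.00621. The importers SLC39A7, which releases zinc from the endoplasmic reticulum, and SLC39A6 gave log2 fold changes of 0.03 (ILMN_3106053, adjusted p = 0.871) and 0.09 (adjusted p = 0.588), and the other SLC39A7 probes 0.04 and 0.18 (adjusted p = 0.892 and 0.224).

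**Figure D4:**
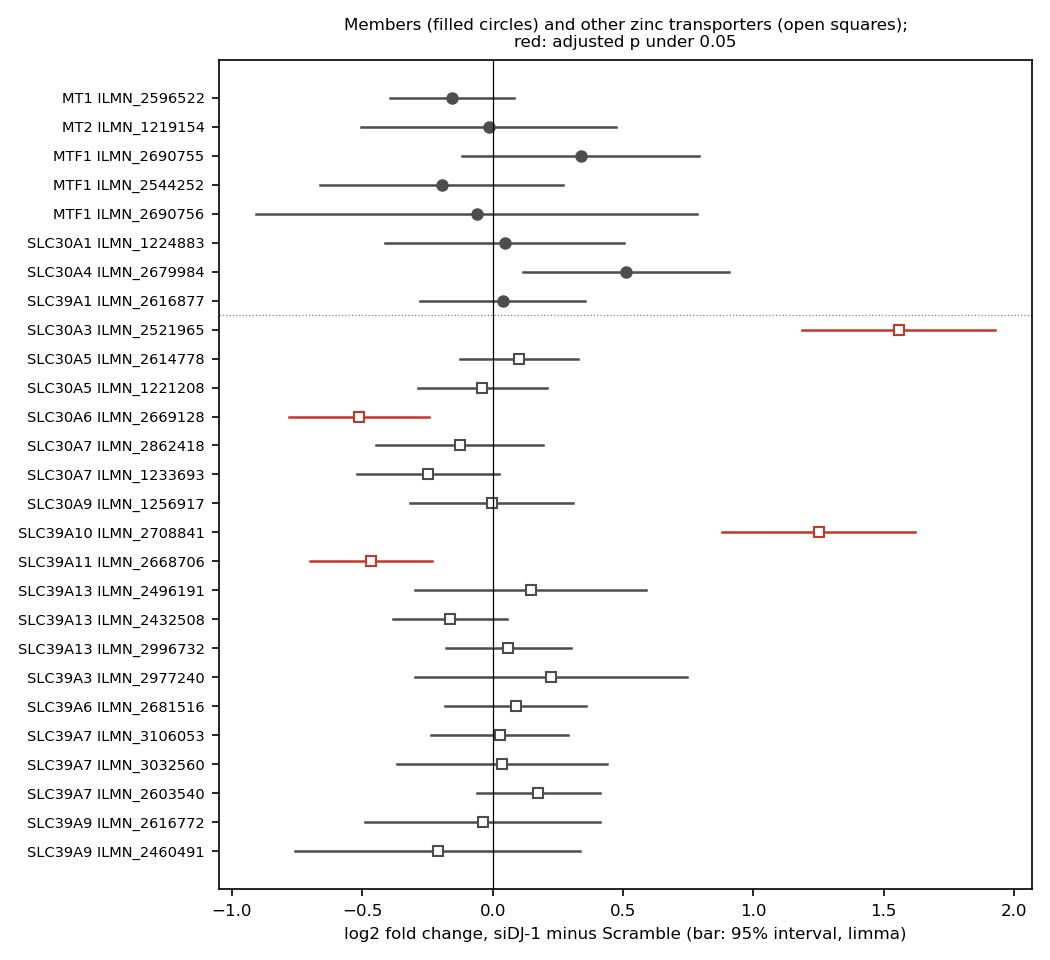
Log2 fold change (siDJ-1 minus Scramble, points) with its 95% interval (bars) for the 8 tested member probes (filled circles) and 19 tested probes of other zinc transporters (open squares). Red marks an adjusted p under 0.05: SLC30A3 and SLC39A10 were higher, SLC30A6 and SLC39A11 lower, and none of the member probes was called. The called SLC30A3 probe was detected on no Scramble array. Its point and interval are therefore not a measured fold, and the text gives a bound of at least 2.03-fold.

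Copper handling genes were listed because metallothioneins also bind copper. Of 16 tested probes 6 were called, 37.5% against 30.1% over all probes, with 4 higher and 2 lower, and the median log2 fold change was -0.07. The copper importer SLC31A1 rose by 0.60 on the log2 scale (adjusted p = 0.00901), from 9.42 ± 0.13 to 10.02 ± 0.05 log2 units (SD, n = 3 each), and SLC31A2 rose by 0.65 (adjusted p = 0.0285). The copper-exporting ATPase ATP7A rose by 0.59 (adjusted p = 0.0467), and 1 probe of the plasma ferroxidase CP (ILMN_2555238) by 0.77 (adjusted p = 0.0339). The other 4 CP probes were not called. Of these, ILMN_3083163 gave -0.08 (adjusted p = 0.559) and ILMN_1218681 gave 0.06 (adjusted p = 0.822). ILMN_1232202 and ILMN_2520239, with groups that did not overlap, gave -0.43 and -0.34 (adjusted p = 0.0933 and 0.0895). The copper chaperone ATOX1 fell by 0.46 (adjusted p = 0.0205), and SCO1, which helps to place copper in cytochrome c oxidase, fell by 0.58 (adjusted p = 0.0412). The second tested probes of ATP7A (0.29, adjusted p = 0.475) and SCO1 (-0.25, adjusted p = 0.131) had the same signs and were not called. COX17 (log2 fold change -0.12, adjusted p = 0.394) and COMMD1 (ILMN_1231658 -0.03, adjusted p = 0.86; ILMN_1215639 -0.25, adjusted p = 0.0859, with groups that did not overlap) were not called. Without background correction the log2 fold changes of the called probes of SLC31A2, ATP7A, CP and SCO1 shrank to 0.32, 0.33, 0.27 and -0.21. ATP7A, CP ILMN_2555238 and SCO1 were called under 5 of 15, 6 of 14 and 4 of 14 alternatives and SLC31A2 under 8 of 15, so these calls lie close to the threshold, and with any single array left out the list held 1 to 4 calls.

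Glucocorticoids induce metallothionein genes, and so do cytokines of the IL-6 type, so targets of both were listed. Of 10 tested glucocorticoid response probes 3 were called, 30% against 30.1% over all probes. All 3, among them both PER1 probes, were higher in siDJ-1, where 16.5% of all tested probes were called higher. Of the 10 log2 fold changes 7 were positive and 3 negative. Both probes of the clock gene PER1 rose, by 1.91 (adjusted p = 0.00429) and 1.61 (adjusted p = 0.00381) on the log2 scale; without background correction the values were 0.99 and 1.29, both called. Of the 2 TSC22D3 probes ILMN_3150811 rose by 0.48 (adjusted p = 0.0232) and ILMN_2701664 gave 0.01 (adjusted p = 0.983). KLF9 (log2 fold change 0.38, adjusted p = 0.0628), ERRFI1 (-0.05, adjusted p = 0.758) and SGK1 (-0.03, adjusted p = 0.861) did not pass, and the median over the 10 probes was 0.271. Of 19 tested IL-6 type response probes 5 were called, 26.3%, with 4 higher and 1 lower and a median log2 fold change of 0.06. The transcription factor CEBPD rose by 1.00 (adjusted p = 0.00733) and STAT3 probe ILMN_2698046 by 0.46 (adjusted p = 0.0354) on the log2 scale. The other STAT3 probes gave 0.45 and 0.19 (adjusted p = 0.0622 and 0.604). For the oncostatin M receptor OSMR the probes went opposite ways. ILMN_2623280 fell by 0.64 on the log2 scale (adjusted p = 0.0255). ILMN_1247795 and ILMN_2583052, detected on 0 Scramble and 3 siDJ-1 arrays, were in the main setting at least 7.83-fold and at least 1.95-fold higher. These 2 probes entered the test, and the counts of 5 called and 4 higher, through their siDJ-1 arrays alone. Their adjusted p-values in limma (0.00223 and 0.00953) belong to the full differences, not to those bounds. With no filter their adjusted p-values were 0.00391 and 0.0200. Without background correction their log2 fold changes were 1.78 and 0.61, below those bounds. ILMN_2583052 lost its call in the unmoderated test (adjusted p = 0.0519). The file lists cDNA records outside RefSeq for the 2 higher OSMR probes, for the called CP probe and for MTF1 ILMN_2544252, and RefSeq records for the other probes of these genes. No probe sequences were given, so whether probes that disagree read different transcripts was not examined. TIMP1 (log2 fold changes -0.25 and -0.21, adjusted p = 0.0957 and 0.176) and CEBPB (-0.03, adjusted p = 0.875) were not called. Without siDJ-1 replicate 1 or siDJ-1 replicate 3 the IL-6 type list held 1 call each, and without Scramble replicate 2 it held 3. Under the alternatives STAT3 ILMN_2698046 was called 7 times of 15, TSC22D3 ILMN_3150811 10 times of 15 and KLF9 7 times of 15.

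The probes most like those of MT1 and MT2 over the 6 arrays were sought among 2423 tested probes with an SD of at least 0.5 log2 units. For MT1, whose own SD was 0.112, they were Recql4 (Pearson r = 0.977), Alg8 (0.956) and Psmf1 (0.95). For MT2, with an SD of 0.266, they were Rad23b (0.952), St3gal3 (0.951) and Olfr295 (0.95). In the order named, the probes were detected on 5, 6 and 4 arrays for MT1 and on 4, 5 and 3 for MT2. The 3 probes nearest to MT1 were lower in siDJ-1, by log2 fold changes of -0.94, -0.82 and -0.82, and those nearest to MT2 were not called. MT1 itself read lower in siDJ-1 after normalization, so the direction of probes picked to follow it comes from the choice. With 6 arrays in 2 groups such values describe the arrays and carry no test.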

How the data were processed

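The authors hybridized biotin-labelled RNA (200 ng labelled per sample) to an Illumina mouse BeadChip, quantified it in GenomeStudio and deposited, for each probe and array, the mean signal intensity, its standard error over beads, the bead number and a detection p-value. The deposited intensity values were neither normalized nor background-corrected. The function neqc of limma 3.58.1 in R 4.3.3 removed background (normexp, offset 16, negative controls taken from the detection p), quantile-normalized the arrays and took log2. Probes detected (p under 0.05) on 3 or more arrays entered lmFit and eBayes of limma, with Benjamini-Hochberg adjustment over every probe tested and calls at an adjusted p under 0.05. Where no array of a group detected a probe, its fold is a bound, taken against that group's lowest detected values, or against the probe's own where these were higher. Gene names follow the file, with 32345 probes matched to RefSeq (GRCm38.p6). The number of arrays limits the precision. No label states separate cultures, so p-values measure the spread between these samples. Named were every member probe, PARK7, every called probe of the lists and up to 3 uncalled ones of highest signal, with other tested probes of their genes, the most similar probes and the markers. The members and lists were chosen with earlier results of these data known. The alternatives were other background, scaling, filter, variance and weight choices, an unmoderated t-test (the authors used a moderated one), a replicate block and each array left out. Tables were made in Python 3.11.15.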

Additional observations from a re-analysis of the deposited data

How the results depend on the processing

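Across 69 results and 1011 recomputed values, 825 kept their direction and their side of the threshold (counts within 1.5 times), 72 lost and 35 gained the call, 46 turned in sign and 33 counts moved by more. The filter, variance, unmoderated test and block alternatives leave the log2 fold change of each probe as it was, so no sign could turn there. The alternatives for the copper, glucocorticoid and IL-6 type lists, for single probes other than those of the members and PARK7, and for markers, were chosen after seeing the data. PARK7 stayed called under all 15, from -1.242 to -1.003. The member count was 0 in the main setting and 1 without background correction, with the 75th percentile shift without it, with the stricter filter, with the variance trend and with array weights, and 0 to 1 with an array left out. That 1 probe was SLC30A4, at 0.378, 0.356, 0.51, 0.51 and 0.608, and with an array left out (0.381 to 0.676) only without Scramble replicate 1; without Scramble replicate 3 the 1 probe was MTF1 ILMN_2690755 (0.191 to 0.552 with an array left out), and without any other array there was none.

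MT1 turned to 0.137 and 0.08 with the 75th percentile shift with and without background correction. So did SLC30A5 ILMN_1221208 (0.062 and 0.009), COMMD1 ILMN_1231658 (0.1 and 0.044), ERRFI1 (0.065 and 0.01), SGK1 (0.104 and 0.047), CEBPB (0.117 and 0.06) and, with correction, COX17 (0.033) and CP ILMN_3083163 (0.047). TSC22D3 ILMN_2701664 gave -0.013 with correction, -0.004 with no background correction and -0.068 with array weights. With array weights SLC30A1 gave -0.088, SLC39A7 ILMN_3106053 gave -0.008, SLC39A7 ILMN_3032560 gave -0.1 and SLC30A5 ILMN_1221208 gave 0. With an array left out, MT2 ranged from -0.191 to 0.157, MTF1 ILMN_2690756 from -0.433 to 0.318, SLC30A1 from -0.129 to 0.21, SLC39A1 from -0.041 to 0.165, SLC39A7 ILMN_3106053 from -0.039 to 0.081, SLC39A7 ILMN_3032560 from -0.07 to 0.172, SLC30A5 ILMN_1221208 from -0.107 to 0.01, COMMD1 ILMN_1231658 from -0.082 to 0.033, SGK1 from -0.094 to 0.029, CEBPB from -0.091 to 0.028, TSC22D3 ILMN_2701664 from -0.187 to 0.201, CP ILMN_1218681 from -0.093 to 0.178 and STAT3 ILMN_3096144 from -0.086 to 0.417. The cause of these turns was not tested.

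Probes called over the array were 3519 (1908 higher, 1611 lower) with no filter, which tests 45281 probes, and 2444 to 5302 (1257 to 2894 higher, 1187 to 2408 lower) with an array left out, which leaves fewer samples. The other zinc transporters held 2 calls with the stricter filter, which leaves out dim probes, and 1 to 4 with an array left out. Copper handling held 2 with no filter, 3 in an unmoderated test and 1 to 4 with an array left out. The IL-6 type list held 3 with no filter, 8 with the variance trend, 2 in an unmoderated test and 1 to 5 with an array left out. Of 15 alternatives DES and TNNT3 kept the call under 14, CCNB1 13, ATOX1 12, TSC22D3 ILMN_3150811 and OSMR ILMN_2623280 10, SLC31A2 8, ID1 and STAT3 ILMN_2698046 7 and ATP7A 5; of 14, CP ILMN_2555238 kept it under 6 and SCO1 under 4; of 11, OSMR ILMN_2583052 under 10. A probe that a filter drops has no value there. KLF9 gained a call under 7 of 15, STAT3 ILMN_2589790 under 6, CP ILMN_2520239 under 5, COMMD1 ILMN_1215639 under 3, the TIMP1 probes under 3 and 1, TOP2A ILMN_1255436 under 2 and CP ILMN_1232202 under 1.

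After each group's mean was taken off every tested probe, the deviations of same-numbered samples correlated at 0.0537, 0.0474 and 0.0199, each highest with its own number. Those of samples with different numbers correlated at -0.0471 to -0.00375. Median array signals, in the order of the numbers, were 162.2, 167.4 and 153.5 in Scramble and 161, 166.9 and 152.3 in siDJ-1. No label says whether a number is shared between the groups, so the main fit left the samples unpaired. With the replicate number as a block 4350 probes were called against 5387, 0 member probes, and 2 copper probes against 6. Dim probes near background (MTF1, SLC39A10, SLC30A3) are limited by signal over background.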
